A study of Danio rerio with 6 samples.

Results

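Microtubules are polymers of α- and β-tubulin that grow from γ-tubulin complexes, and they carry motors of both directions, the kinesins, most of which walk towards the growing end, and cytoplasmic dynein, which walks the other way with the help of dynactin. In the fish embryo the cleavage divisions, the spindle, the asters and the yolk microtubule arrays run on this machinery, much of it supplied by the mother before the embryo transcribes its own genome. The genes described here are those whose symbol marks them as an α-, β-, γ-, δ- or ε-tubulin or a γ-tubulin complex subunit, a numbered kinesin, a kinesin light chain, a cytoplasmic dynein chain or a dynactin subunit. The symbols came from the array design, from RefSeq accessions and older symbols, or from the design's map markers. They gave 47 genes of the 10980 with a usable symbol, each represented by the target that was brightest in the authors' value table, out of 77 targets. The array reported 38489 targets in all, a target being a set of probes for 1 transcript.

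Zebrafish embryos were injected with a morpholino, an antisense oligonucleotide that blocks translation or splicing of its transcript, and total RNA was taken at the sphere stage, a blastula stage. The embryos were kept in E3 fish water at 28°C. The control group received control-MO and had a normal phenotype. The other group received nanog-like-MO1, against the maternal homeobox gene now called nanog, and had a gastrulation defect. There were 3 arrays a group, from separate cultures according to the labels. The strain, the dose and the number of embryos behind an array are not given in the sources used here. All levels below are normalized intensities on the log2 scale, all differences are morpholino minus control on that scale, and a gene was called changed at an adjusted p under 0.05 in limma over all targets.

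Median raw intensities of the 6 arrays lay between 408 and 529, and precision is set by having 3 arrays a group. Of 5 markers of the early blastula 4 were measured, nanog, pou5f3, sox19b and zar1, with group means from 10.1 to 14.9. Markers of differentiated neurons, which the stage should lack, had group means from 6.21 to 8.19 over 6 genes, against a lowest value of 5.66 and a 25th percentile of 6.74 over all targets. Of 4 markers of multiciliated cells 3 were measured, with group means from 6.39 to 7.76. Of 4 yolk syncytial layer markers 3 were measured, mxtx2, hnf4a and gata6, and their mean level was 9.51 to 10.4 on the control arrays and 7.09 to 7.76 on the morpholino arrays, and its part in the results below was not tested. The mean of 6 enveloping layer markers was 11.6 to 12.2 and 12.1 to 12.9, with 0 of the 6 called and differences from -0.41 for krt5 to 2.16 for evpla. The morpholino arrays lay above all control arrays for evpla and for cldne, at 0.64. The groups overlapped for krt4, krt5, krt8 and krt18a.1. In the authors' value table evpla passed (adjusted p = 0.0452, limma). In whole embryos, fewer cells of a type and less RNA per cell cannot be told apart.

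No tubulin, kinesin, dynein or dynactin gene passed the test. Of the 47 genes 0 were called higher and 0 lower (limma), where 0.257% and 0.390% of all targets were called and 0.647% in either direction, so a count of 0 among so few genes is near the background. Without adjustment, limma gave a p under 0.05 to 5 genes that were higher and to 1 that was lower, against 5.30% and 5.03% of all targets. The smallest adjusted p among the 47 was 0.298, for dctn4. Differences ran from -0.79 for kif5aa to 0.56 for dync1i1b, and 45 of the 47 lay within 0.5 of 0, or 95.7%, against 91.4% of all targets. The median difference was 0.07, against -0.01 over all targets and -0.02 over all genes with a usable symbol. The median absolute difference was 0.13 both in the 47 genes and over all targets.

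A failed test does not show equal levels, so the 95% interval of each difference is given as a bound. For 40 of the 47 genes the whole interval lay inside a 2-fold change in either direction, as it did for 86.8% of all targets. For 29 of them it lay inside 1.5-fold, against 56.2% of all targets. Among the 40 are tubb4, klc4, kif3cb and dynlt5, the 4 genes below the 25th percentile of all targets. This scale understates changes of such dim targets, so their intervals bound little. The interval of dynlt1b, also among the 40, ends at 0.67, while its difference in the authors' value table was 0.80. Each interval is for 1 gene under the main processing. The 7 genes whose interval reached past 2-fold were tuba8l2, tuba8l3, tubb2, tubb6, kif5aa, dync1i1b and dynlt3. For these 7 a change of over 2-fold is not excluded with 3 arrays a group.

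**Figure D1:**
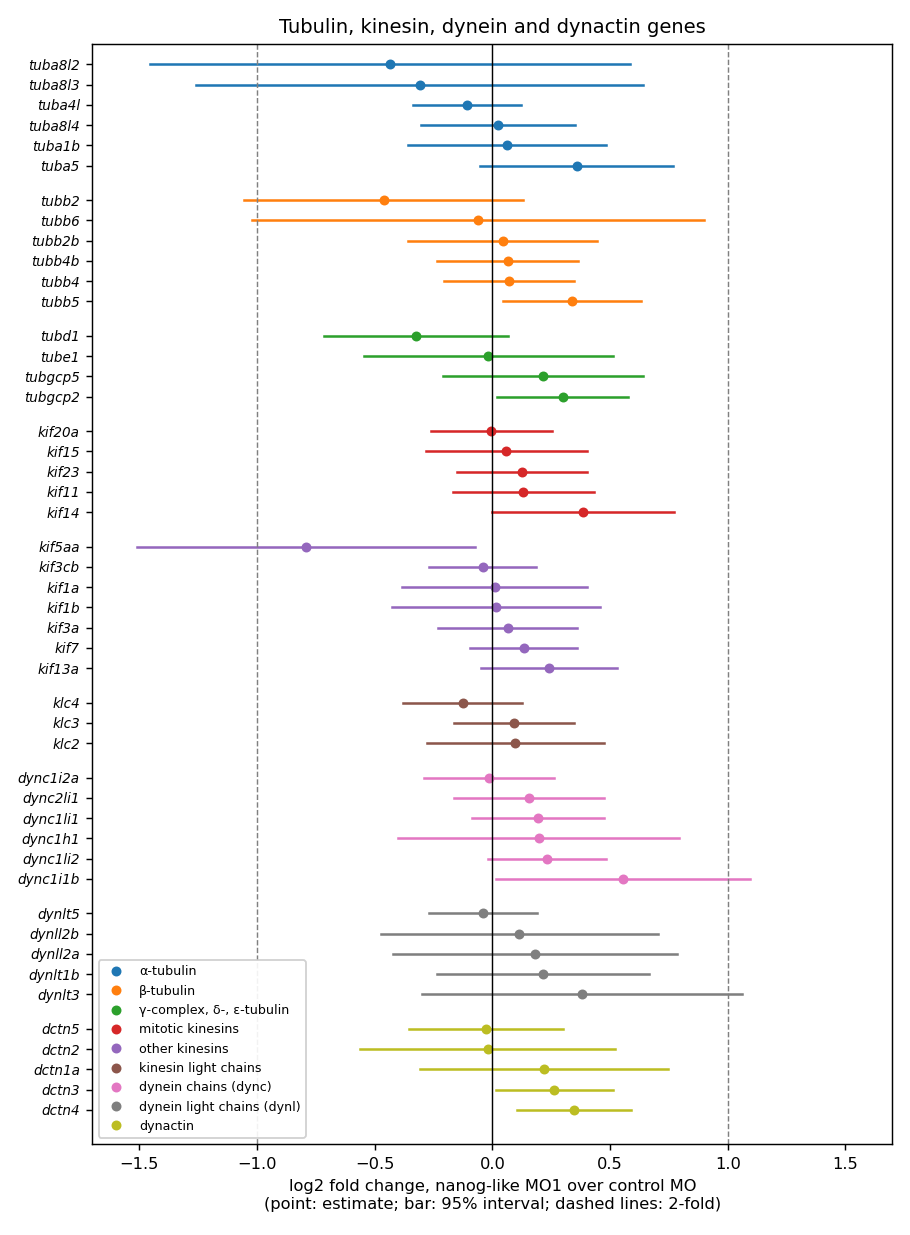
Difference between groups (log2 fold change, nanog-like MO1 over control MO, x axis) for each of the 47 genes, coloured by family, with 95% intervals from limma as bars and dashed lines at 2-fold. The points lie between -0.79 and 0.56, and 40 of the intervals stay between the dashed lines.

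Tubulins form the filament itself. The 6 α-tubulin genes had differences from -0.44 to 0.36 with a median of -0.04, and 0 of the 6 passed in either direction. The level of tuba4l, an α-tubulin, was 12.01, 12.01 and 12.08 on the control arrays and 11.99, 11.85 and 11.94 on the morpholino arrays. Its morpholino arrays all lay below its control arrays, though by a difference of only -0.11 (SE 0.10, adjusted p = 0.799, limma), and the interval excludes a change over 1.26-fold in either direction. For tuba5 (Zv7 chromosome 8, 21996708 to 22001239) the control arrays gave 12.27, 12.54 and 12.61 and the morpholino arrays 13.01, 12.52 and 12.97. The middle morpholino array fell inside the control range, and the difference was 0.36 (SE 0.17, adjusted p = 0.561, limma). A further target of tuba5 is named only by a map marker, and the design gives it no position on the genome. It gave 12.90, 12.83 and 12.81 against 13.45, 13.13 and 13.29, without overlap. Its difference of 0.45 (SE 0.12, adjusted p = 0.247, limma) also missed the threshold. The genes tuba1b and tuba8l4 differed by 0.06 (SE 0.18) and 0.02 (SE 0.14). Further targets are named tuba1b by a map marker on chromosome 23. The one that lies on Zv7 chromosome 23 differed by -0.08 (SE 0.10). Those on Zv7 chromosomes 10 and 9 differed by -0.29 (SE 0.22) and 0.19 (SE 0.27). A dim one without a position differed by -0.20 (SE 0.24). Which gene the targets not placed on chromosome 23 measure is uncertain. The symbols tuba1a and tubg1 were on no target under this naming, and no target was analysed under them. A target with the human counterpart TUBG1 differed by -0.17 (SE 0.14).

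Of the 6 β-tubulin genes 0 passed in either direction, with a range from -0.46 to 0.34 and a median of 0.05. The target of tubb4b (Zv7 chromosome 14, 936720 to 940431), a β-tubulin used in most cell types, gave 14.06, 14.15 and 14.06 on the control arrays and 14.29, 14.24 and 13.94 on the morpholino arrays. These values overlapped, and the difference of 0.06 (SE 0.12, adjusted p = 0.928, limma) has an interval of -0.23 to 0.36. The target of tubb2b had means of 13.15 ± 0.29 and 13.19 ± 0.11 in the same order (SD, n = 3). The gene tubb5 (Zv7 chromosome 16, 3589217 to 3597879) stood highest of the 6 in its difference. Its control arrays read 11.30, 11.17 and 11.09 and its morpholino arrays 11.68, 11.52 and 11.37. The groups did not overlap, and the difference was 0.34 (SE 0.12, adjusted p = 0.406, limma). A further target is named tubb5 by a map marker on chromosome 16 but lies on Zv7 chromosome 2, so which gene it measures is uncertain. It differed by 0.30 with a wide SE of 0.73. The target named tubb4 was dim on all arrays, between 5.94 and 6.25, below the 25th percentile of all targets. Both tubb2 and tubb4 are named by map markers that the design puts on chromosome 14, while the tubb2 target lies on Zv7 chromosome 3, so which gene these targets measure is uncertain. Tubulin genes share long stretches of near-identical sequence, and probes of one may pick up transcripts of another.

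For 4 tubulin genes control replicate 2 stood apart from the other control arrays. On control replicate 2, tuba8l3 read 10.57 against 9.21 and 9.11 on the other control arrays, and a morpholino mean of 9.32 ± 0.23 (SD, n = 3). The gene tubb6 read 11.16 there against 10.13 and 9.54, with 10.40, 10.33 and 9.91 on the morpholino arrays. The same array was the highest control for tuba8l2, at 10.25 against 9.31 and 9.51, and for tubb2, at 10.08 against 9.19 and 9.54. A margin of over 0.5 above both other control arrays was thus met by 4 of the 12 α- and β-tubulin genes, against 4.41% of all targets. Of the kinesin, dynein, dynactin and other tubulin genes among the 47, 0 met it. It was also met by 4 of the 30 further targets of member genes and by 4 of the 40 partner genes described below. Of 30 other targets with a human counterpart in these families 4 met it, with the counterparts TUBGCP6, TUBA1 and TUBA2 among them. This margin was picked after the values were seen and is a description only. Without that array the difference of tuba8l3 went from -0.31 to 0.16, that of tubb6 from -0.06 to 0.38 and that of tubb2 from -0.46 to -0.23. The difference of tuba8l2 went from -0.44 to -0.15 without it, but turned more on morpholino replicate 3. Its morpholino arrays read 9.86, 9.52 and 8.39, and without the lowest of them the difference was -0.00. None of these 4 genes passed in any of these fits.

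**Figure D2:**
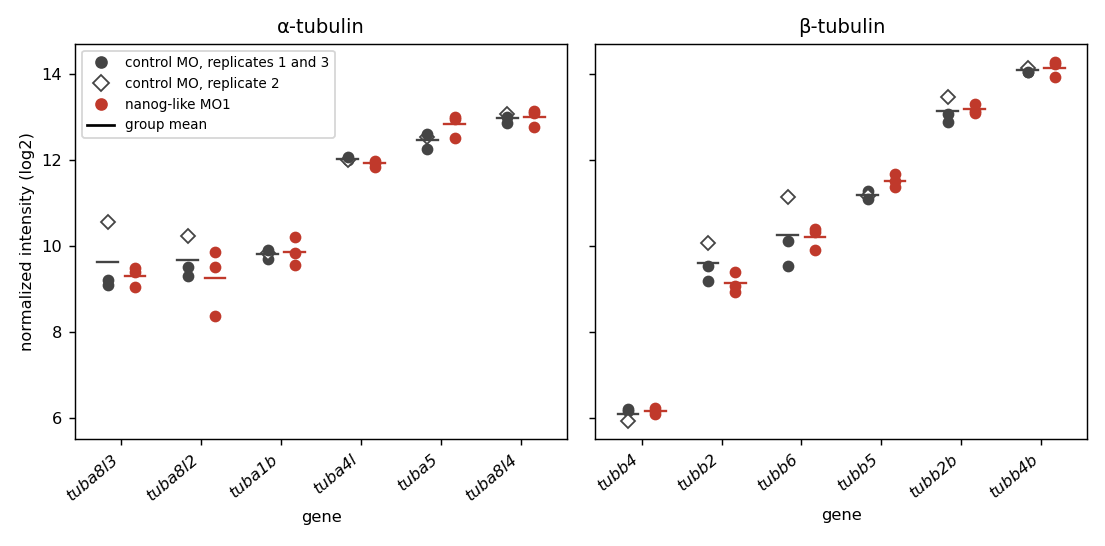
Normalized intensity (log2, y axis) of the 6 α-tubulin and 6 β-tubulin genes on each array, control MO in grey and nanog-like MO1 in red, with group means as lines. Open diamonds mark control replicate 2, which lies apart from the other control arrays for tuba8l3, tuba8l2, tubb2 and tubb6. Different genes have different probes, so heights are comparable only within a gene.

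Subunits that nucleate microtubules or build centrioles gave 4 genes, of which 0 passed. The γ-tubulin complex subunit gene tubgcp2 (Zv7 chromosome 12, 4321198 to 4355429) read 11.61, 11.66 and 11.55 on the control arrays and 12.09, 11.80 and 11.82 on the morpholino arrays. The groups were separate, with a difference of 0.30 (SE 0.12, adjusted p = 0.451, limma). A further tubgcp2 target, named by a map marker, differed by 0.19 (SE 0.15). The other complex subunit, tubgcp5, differed by 0.21 (SE 0.18), with 12.82 on morpholino replicate 1 and 12.19 and 12.35 on the other two. For the centriolar δ-tubulin gene tubd1 the means were 9.51 ± 0.28 and 9.19 ± 0.10 (SD, n = 3, control first), a difference of -0.32 (SE 0.16, adjusted p = 0.583, limma). The ε-tubulin gene tube1, another centriole component, differed by -0.02 (SE 0.22).

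Kinesins that act in mitosis and cytokinesis differed by -0.00 to 0.38, with a median of 0.12. Of these 5, 0 passed in either direction, and all 5 intervals lay inside 2-fold. The target of kif23 (Zv7 chromosome 18, 13688279 to 13710399), the motor subunit of centralspindlin at the cleavage plane, read 14.34, 14.45 and 14.28 in control and 14.64, 14.40 and 14.41 in morpholino embryos. These overlap, and the difference was 0.12 (SE 0.11, adjusted p = 0.807, limma). The target of kif20a, which brings the chromosomal passenger complex to the central spindle, gave 13.61, 13.84 and 13.72 against 13.78, 13.71 and 13.67, and a difference of -0.00 (SE 0.11) with an interval of -0.26 to 0.25. The tetrameric motor gene kif11, which pushes spindle poles apart, differed by 0.13 (SE 0.12), and kif15, which can share that task, by 0.06 (SE 0.14). Only kif14 of the 5, a motor of the late midbody, had separate groups. It read 12.87, 12.84 and 12.36 on the control arrays and 13.16, 12.99 and 13.08 on the morpholino arrays, a difference of 0.38 (SE 0.16, adjusted p = 0.489, limma), in which control replicate 3 was the lowest array.

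The 7 other kinesin genes, motors of transport and of the cilium, had a median difference of 0.01, and 0 passed. The largest difference of all 47 genes was that of kif5aa (Zv7 chromosome 6, 42029440 to 42082870), a kinesin-1 heavy chain gene known from neurons. Its control arrays read 8.81, 9.30 and 9.62 and its morpholino arrays 8.83, 8.61 and 7.91. The groups overlapped by 1 array on each side, and the difference of -0.79 (SE 0.30, adjusted p = 0.432, limma) has an interval from -1.51 to -0.07. This target has 4 probes, and its log2 fold change in the authors' value table was -0.40. The other kif5aa targets, both dim, differed by -0.31 (SE 0.15) and 0.09 (SE 0.11).

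Among the other transport motors, kif3a, a kinesin-2 subunit gene needed for cilia, differed by 0.07 (SE 0.12), and kif1b and kif1a, vesicle transport motors of axons, by 0.01 (SE 0.18) and 0.01 (SE 0.16). The kif1a target has 3 probes and keeps the design's name. Over all 10 targets of kif1a the differences ran from -0.25 to 0.16. For kif7, a ciliary regulator of Hedgehog signalling, the control arrays gave 12.70, 12.65 and 12.78 and the morpholino arrays 12.87, 12.86 and 12.81. These groups did not overlap, yet the difference was only 0.13 (SE 0.09, adjusted p = 0.736, limma), with an upper bound of 1.28-fold. The endosomal motor gene kif13a also had separate groups, at 11.69 ± 0.16 and 11.93 ± 0.09 (SD, n = 3), a difference of 0.24 (SE 0.12, adjusted p = 0.583, limma). The dim target of kif3cb, a further kinesin-2 gene, lay between 6.57 and 6.74 on all arrays. Kinesin light chains link kinesin-1 to its cargo, and the 3 genes klc2, klc3 and klc4 differed by 0.10 (SE 0.16), 0.09 (SE 0.11) and -0.13 (SE 0.11). The symbol kif5ba was on no target under this naming, and no target was analysed under it. A target with the human counterpart KIF5B differed by 0.42 (SE 0.29).

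Dynein and dynactin genes had the highest family medians, 0.20 for the 6 heavy, intermediate and light intermediate chains and 0.22 for the 5 dynactin subunits, with 0 of these genes called. Relative to the control mean, the dynactin median was 0.32, 0.11 and -0.00 on morpholino replicates 1, 2 and 3. That of the 6 dynein chains was 0.19, 0.07 and 0.21 in the same order. The heavy chain gene dync1h1 (Zv7 chromosome 17, 44240237 to 44241262), which encodes the motor itself, read 7.78, 7.94 and 7.38 on the control arrays and 8.37, 7.76 and 7.56 on the morpholino arrays. Morpholino replicate 1 alone lay above the controls, and the difference was 0.20 (SE 0.25, adjusted p = 0.876, limma). Both group means, 7.70 and 7.90, lay within the 6.21 to 8.19 of the neuron markers, which the stage should lack. The light intermediate chains bind cargo adaptors. For dync1li2 the levels were 12.61, 12.54 and 12.68 against 12.73, 12.87 and 12.92, and for dync1li1 they were 11.85, 11.53 and 11.78 against 11.92, 11.94 and 11.89. Both genes had separate groups, with differences of 0.23 (SE 0.10, adjusted p = 0.53) and 0.19 (SE 0.12, adjusted p = 0.668) in limma.

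The intermediate chains hold dynein to dynactin. Of these, dync1i2a differed by -0.02 (SE 0.11), with an interval that excludes a change over 1.22-fold in either direction. The paralog dync1i1b (Zv7 chromosome 16, 25744949 to 25765811) had the highest difference of the 47 genes. It had a control mean of 7.88 ± 0.21 (SD, n = 3) with a highest control array of 8.01, and read 8.65, 7.97 and 8.70 on the morpholino arrays, so that morpholino replicate 2 lay inside the control range. The difference was 0.56 (SE 0.23, adjusted p = 0.473, limma), and in the authors' value table it was 0.80 on the log2 scale. The gene dync2li1, of the dynein that runs inside cilia, differed by 0.16 (SE 0.13). Of the 5 light chain genes 0 passed. The hub protein genes dynll2a and dynll2b differed by 0.18 (SE 0.25) and 0.11 (SE 0.24). The Tctex-type gene dynlt3 read 11.16, 10.11 and 11.06 on the control arrays and 11.29, 11.15 and 11.03 on the morpholino arrays. Its difference of 0.38 (SE 0.28, adjusted p = 0.749, limma) came with a low control replicate 2, and without that array it was 0.05. The target of dynlt1b differed by 0.22 (SE 0.19) here and by 0.80 in the authors' value table (adjusted p = 0.204 there). The dim dynlt5 target differed by -0.04 (SE 0.10), and dynll1 was not analysed here.

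Dynactin is the complex that makes dynein processive. Its subunit gene dctn4 (Zv7 chromosome 20, 47474081 to 47474439), of the pointed end of the complex, had the smallest p of the 47 genes. Its control arrays read 11.66, 11.61 and 11.66 and its morpholino arrays 11.88, 12.07 and 12.02. All morpholino arrays lay above all control arrays, with a difference of 0.35 (SE 0.10) and an interval from 0.11 to 0.59, or a 1.27-fold higher level that did not pass over all targets (adjusted p = 0.298, limma). The groups were also separate for the subunit gene dctn3, with 9.46, 9.28 and 9.33 against 9.68, 9.65 and 9.53, a difference of 0.26 (SE 0.10, adjusted p = 0.455, limma). A further dctn3 target, named by a map marker, differed by -0.03 (SE 0.10). The large subunit gene dctn1a, which binds microtubules, read 12.17, 12.75 and 12.44 against 13.04, 12.57 and 12.41, overlapping, a difference of 0.22 (SE 0.22). The genes dctn2, whose product dynamitin ties the complex together, and dctn5 differed by -0.02 (SE 0.23) and -0.03 (SE 0.14).

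**Figure D3:**
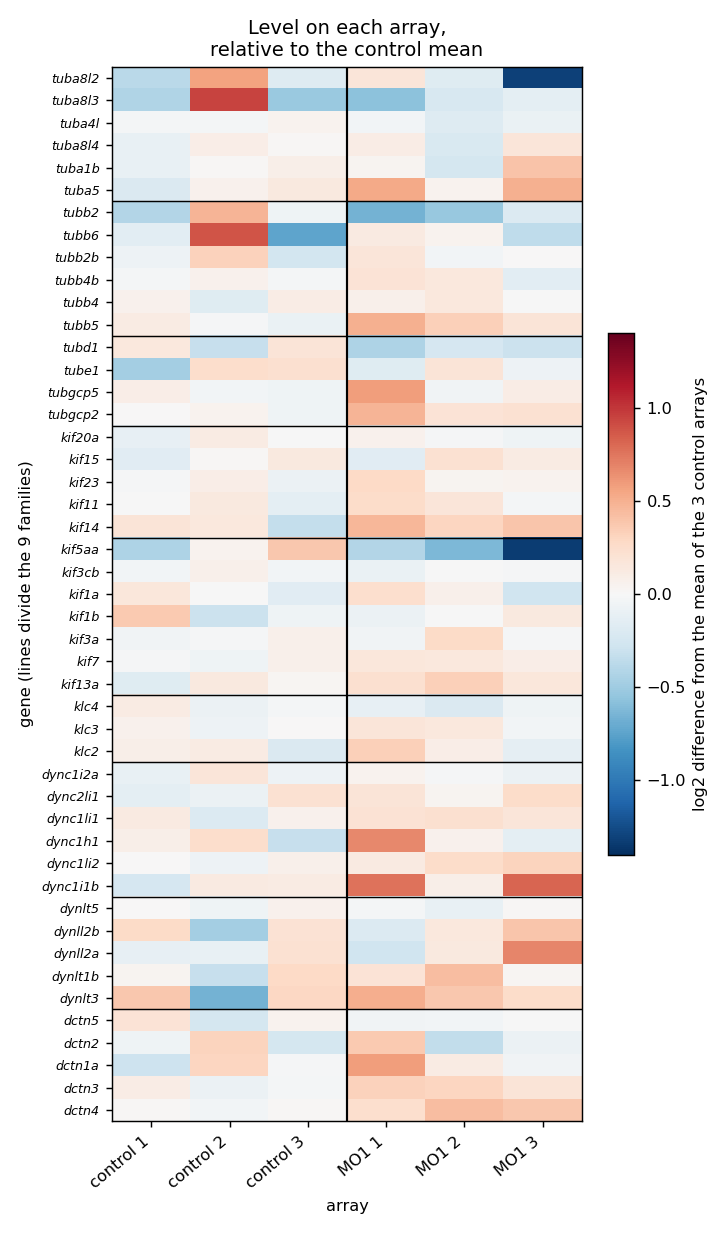
Level of each of the 47 genes (rows, in family blocks) on each of the 6 arrays (columns), as the log2 difference from the mean of the 3 control arrays, red higher and blue lower. Most cells are pale, the darkest blue cells are tuba8l2 and kif5aa on morpholino replicate 3, and the darkest red cells are tuba8l3 and tubb6 on control replicate 2.

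The members lay slightly higher than all targets, by a median that was not the same on each morpholino array and that turned to -0.01 with arrays centred on their medians, where all targets stood at -0.10. Of the 47 genes 32 had a difference above 0, against 47.0% of all targets. The groups did not overlap for 9 genes with the morpholino arrays higher and 1 with them lower, against 7.36% and 7.97% of all targets. Relative to the control mean the median gene stood at 0.16 on morpholino replicate 1, at 0.07 on replicate 2 and at 0.01 on replicate 3, while the 3 control arrays stood between -0.02 and 0.02. The array numbers in the labels fall into ranges, and morpholino replicate 3 shares a range with all 3 control arrays. Within that range the median was therefore 0.01 on 1 morpholino array, and with the range as a term limma called 0 of all 38489 targets, so the count of 0 among the 47 genes in that fit says nothing about them. Where several targets of a gene were on the array, they agreed in sign for 12 of 16 genes. Some of these targets cover the same stretch of the genome, and others lie off the chromosome of their map marker. Their agreement is therefore no independent support. The genes are not independent of each other either, and these counts are descriptions.

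Other genes of the microtubule system were taken from a list of 81 regulators and partners. Its genes tubgcp2 and tubgcp5 are among the members above and were left out. Listed genes without a target under their own name, such as tubgcp3 and tubgcp6, were not counted. This left 40 genes. Of these, 0 were called higher and 1 lower (limma), against 0.257% and 0.390% of all targets. An unadjusted p under 0.05 in limma was given to 3 that were higher and to the same 1 that was lower. Over all targets those shares were 5.30% and 5.03%. Their median difference was 0.05. The gene called lower was stmn2a, which encodes a stathmin, a protein that binds free tubulin and destabilises microtubules. It read 9.60, 9.64 and 9.81 on the control arrays and 6.30, 6.27 and 6.46 on the morpholino arrays, a log2 difference of -3.34 (SE 0.11, adjusted p = 0.000807, limma). The morpholino level lay under the 25th percentile of all targets, where this scale understates a change, and in the authors' value table the log2 difference was -5.68, so the size of the fall is uncertain. With the array number range as a term, which leaves 1 morpholino array, the difference was -3.23 and did not pass (adjusted p = 0.0833, limma), in a fit that called 0 of all targets. The stathmin paralogs stmn1a, stmn1b, stmn2b, stmn3, stmn4 and stmn4l differed by 0.50 (SE 0.18), 0.62 (SE 0.27), -0.19 (SE 0.51), -0.19 (SE 0.11), -0.45 (SE 0.44) and 0.14 (SE 0.15), and 0 of these 6 passed. The next largest difference in the list was that of numa1, whose product gathers dynein and microtubules at spindle poles. It read 10.51, 9.98 and 10.48 against 11.29, 11.01 and 11.36, without overlap, a difference of 0.90 (SE 0.18, adjusted p = 0.141, limma). Among genes picked for their role after the values were seen, like the stathmin paralogs above, the spindle regulator genes plk1, tpx2 and aurka differed by 0.11 (SE 0.09), -0.01 (SE 0.12) and 0.23 (SE 0.13), and pafah1b1a, the Lis1 gene of dynein regulation, by 0.01 (SE 0.09).

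**Figure D4:**
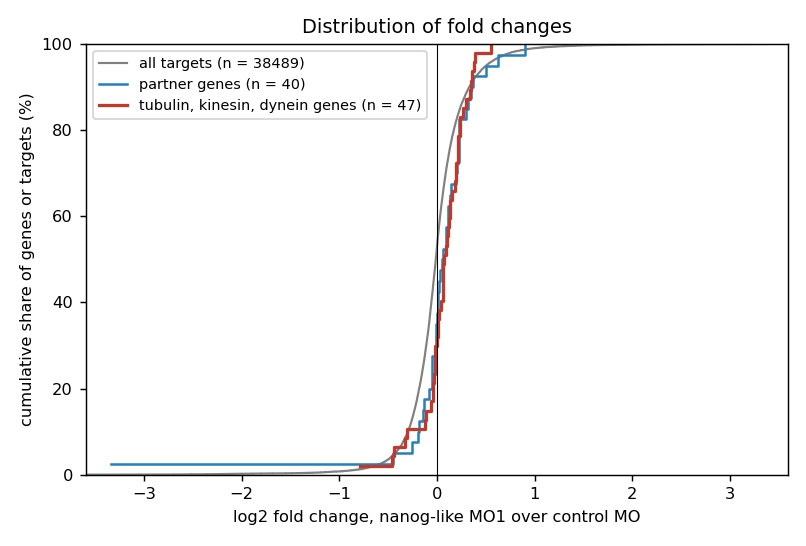
Cumulative share (percent, y axis) of genes or targets at or below each log2 fold change (nanog-like MO1 over control MO, x axis), for the 47 genes, the 40 partner genes and all 38489 targets. The 47 genes rise steeply between -0.79 and 0.56, with 95.7% of them within 0.5 of 0, against 91.4% of all targets. The long tails of all targets hold a small share of them, so 47 genes are too few to compare there. The one far point among the partner genes is stmn2a at -3.34.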

How the data were processed

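Total RNA (Trizol extraction, Cy3 label) was hybridised to 1-colour NimbleGen arrays, per the labels' protocols. Sample titles gave the groups. The authors deposited a table per array with a linear intensity for each target, the mean of its perfect-match probes, unnormalized between arrays, per the file headers. A deposited value table holds linear intensities that came from RMA (per the submitters' processing notes, no version stated), with column medians between 179 and 200 and a centring that stays unknown. It chose each gene's target and served as an alternative.

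The per-array values were background-corrected with normexp (offset 50, which shrinks differences of dim targets), quantile normalized and taken to log2. The test was limma 3.58.1 under R 4.3.3, 2-sided, with a single group term and Benjamini-Hochberg adjustment over 38489 targets at a threshold of 0.05. Intervals of 95% use the moderated SE. The fit was also run on simulated independent normal values with known changes. These had no array effects, so that run says nothing about such effects here. Symbols were matched through a RefSeq table of the GRCz12tu assembly, used for names alone. Of the 47 genes 10 were named by RefSeq accession, 15 by current and 16 by older symbol, 1 as the design gives it and 5 by map marker. The 5 named by map marker were tuba8l4, tubb2, tubb4, kif11 and dync1h1. Coordinates are the array design's, on Zv7, and whether probes lie in exons or UTRs was not analysed here.

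The members and lists were chosen with earlier results of these data known. The rule for genes named with values took every member that passed, the 2 highest and 2 lowest differences of each of 9 families and a set of textbook genes, and, of the partner list, those that passed and the 2 largest differences. Members outside the rule are given so that all are accounted for. Alternatives were no background correction, RMA, 2 other centrings, a filter on dim targets, an intensity trend, leaving out each array, the replicate number and the array number range as blocks, and the naming.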

Additional observations from a re-analysis of the deposited data

How the results depend on the processing

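Of the 14 alternative fits, that with the array number range leaves 1 morpholino array and says nothing about the members. In the others 0 members were called higher or lower. The smallest adjusted p of a member in them was 0.204 (limma), in the authors' value table. The filter on dim targets tested 43 of the 47 genes. The counts of calls were also 0 with every target of a member and without map marker names. They were 0 too over 30 further targets tied to these families by a human counterpart such as KIF4A or TUBG1. That alternative was chosen after seeing the data. Differences of these 30 targets ran from -0.62 for a KIF2 target to 0.42 for a KIF5B target. Their median was 0.04, and 18 lay above 0, against 47.0% of all targets. Without adjustment, limma gave a p under 0.05 to 0 that were higher and to 2 that were lower, against 5.30% and 5.03% of all targets. These 2 were that KIF2 target and a KIF18A target, with a difference of -0.30 (SE 0.12). The members' median of 0.07 was 0.23 with arrays centred on reference genes, which moved the median of all targets to 0.14, and -0.01 with arrays centred on their medians, which moved it to -0.10, so the members lay 0.09 above all targets in both. Leaving out 1 array at a time gave a median from 0.05 to 0.11, and 93 to 187 targets called over the whole array against 249. That count was 187 without control replicate 1 and lower by over 1.5 times, at 93 to 165, without control replicate 2, control replicate 3 or any of the 3 morpholino arrays. Of 584 values of named genes not called, 55 had the opposite sign under an alternative. The 584 include the intensity trend, the filter on dim targets and the replicate block. Those fits leave each difference as it was, so no sign could change in them. With the array number range as a block, partner genes called lower were 0 in place of 1, stmn2a having adjusted p = 0.0833 on 1 morpholino array, and 0 of all targets were called. Arrays with the same replicate number showed no clear pairing (correlations of deviations -0.01, -0.10 and 0.17). Arrays with different numbers were not compared, so pairing is neither shown nor excluded. With the replicate block 0 members were called higher and 0 lower, and 134 targets were called in all. The median stayed at 0.07, since this balanced block cannot move it. The 4 of the 47 genes below the 25th percentile of all targets carry little information. That is not a full count of weakly detected genes. Group means of dync1h1 and dynlt1b, and the control mean of dync1i1b, lay within the 6.21 to 8.19 of the neuron markers.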
